A study of Mus musculus with 5 samples.

Results

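The Trim30 and Trim12 genes form a cluster of tripartite motif (TRIM) genes on mouse chromosome 7. The 7 genes described here are Trim30a, Trim30b, Trim30c, Trim30d, Trim12a, Trim12c and Trim34a, out of 27726 genes common to the 5 libraries. They were chosen by their position, name and levels, with the higher level of Trim30d in cultured cells already known, so the difference between cultured and fresh cells is given for them as a description with no test.

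The study sequenced single group 2 innate lymphoid cells (ILC2s) from lungs of wild type C57BL/6 mice, which carry no engineered allele, on the 10x Genomics 3′ platform. The naïve library came from mice without a tumour. The 4 tumour-associated (ta) libraries came from mice that carried TC1 cells, a transformed lung epithelial line injected under the skin, and were taken at week 2 or week 3. Naïve and ta-non-activated cells were sequenced fresh, while ta-activated cells were first cultured for a week with IL-33 and TSLP, in a medium that also held IL-2. According to the methods the mice were females of 4 to 8 weeks of age with 5 mice in a group, and the sort was for Lin- ST2+ CD127+ Thy1.2+ CD45+ cells. Each combination of condition and week is therefore 1 library, and the spread between the weeks mixes tumour stage with everything else that differed between libraries.

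Between 1601 and 6389 cells per library were kept, with a median of 4396 to 16090 UMIs (unique molecular identifiers, each standing for a counted RNA molecule) per cell. Defining ILC2 markers (Gata3, Il1rl1, Rora, Il5, Il13, Areg, Klrg1 and Arg1) were all detected in every library. The week 3 ta-non-activated library stood apart: its 8 ILC2 markers summed to 906 UMIs per 1000000 (CPM), against 6129 to 11007 CPM in the others, and its 14 T-lineage markers to 7311 CPM, against 290 to 1186 CPM. None of the 14 was at 0 there, while 2 to 5 of them were at 0 in the others, each time Rag1 and Rag2 among them. Only 31.0% of its cells had more ILC2-marker than T-lineage-marker UMIs, the gate used below, against 89.3% to 97.7% in the other 4. Levels of the cluster genes in that library are therefore also given for its 496 ILC2-gated cells. Any 2 libraries shared between 1 and 11 cell barcodes.

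TRIM proteins are ubiquitin ligases with a RING finger, a B-box and a coiled coil, and many of them act in antiviral defence. The mouse Trim30 and Trim12 genes are the rodent relatives of primate TRIM5, which blocks incoming retroviruses, and genes of this group are known to be induced by interferon. TRIM30α, the product of Trim30a, restrains Toll-like receptor signalling by promoting loss of TAB2 and TAB3, while the Trim12c product works with TRAF6 in the induction of type I interferon. ILC2s are tissue lymphocytes that answer alarmins such as IL-33 and TSLP with type 2 cytokines.

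The cluster spanned 263393 bases of chromosome 7 in GRCm38, from 104244457 to 104507849. Trim34a, at 104244457 to 104262234, lay on the plus strand. The other 6 lay on the minus strand in the order Trim12a (104299894 to 104315466), Trim12c (104338754 to 104353362), Trim30b (104355382 to 104369884), Trim30c (104382065 to 104400837), Trim30a (104409025 to 104465193) and Trim30d (104470014 to 104507849). All 7 are annotated as protein coding (Trim34a ENSMUSG00000056144, Trim12a ENSMUSG00000066258, Trim12c ENSMUSG00000057143, Trim30b ENSMUSG00000052749, Trim30c ENSMUSG00000078616, Trim30a ENSMUSG00000030921, Trim30d ENSMUSG00000057596). Over the aligned coding bases Trim30a was 90.2% identical to Trim30d, 88.3% to Trim30b and 83.2% to Trim30c, and Trim12a was 96.4% identical to Trim12c. The longest coding sequence held 891 bases for Trim12a against 1491 for Trim12c, and 609 for Trim30b against 1488 for Trim30a. Of all 90-base windows in the last 500 bases of its transcripts, where 3′ reads fall, Trim30d shared 14.5% exactly with Trim30a and Trim34a shared 14.6% with Trim34b, so those counts may in part be unassigned or exchanged. Trim30a, Trim30b, Trim30c and Trim12a shared none with any other gene, and Trim12c shared 1.3% with the small nuclear RNA Gm27995.

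The stretches from 110 bases before to 30 bases after the RefSeq starts are shown because interferon-induced genes often carry paired GAAA motifs there. They come from RefSeq on GRCm38.p6: Trim30a chr7:104465164-104465303, Trim30d chr7:104507820-104507959, Trim30c chr7:104400749-104400888, Trim30b chr7:104358617-104358756, Trim12a chr7:104315466-104315605 and Trim12c chr7:104353320-104353459, all minus strand, and Trim34a chr7:104244347-104244486, plus strand. Each reads 5′ to 3′ along its gene. Capitals mark 2 GAAA blocks, here read as TTTC on the opposite strand, set 1 or 2 bases apart. For Trim30a the start farther upstream is shown, and a further match of Trim12a lies past the printed end.
Trim30a: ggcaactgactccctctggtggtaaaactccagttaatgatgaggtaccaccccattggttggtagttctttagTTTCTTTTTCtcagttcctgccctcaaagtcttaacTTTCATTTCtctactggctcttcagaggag
Trim30d: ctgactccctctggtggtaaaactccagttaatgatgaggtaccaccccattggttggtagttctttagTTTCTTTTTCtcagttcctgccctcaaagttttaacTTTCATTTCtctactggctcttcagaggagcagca
Trim30c: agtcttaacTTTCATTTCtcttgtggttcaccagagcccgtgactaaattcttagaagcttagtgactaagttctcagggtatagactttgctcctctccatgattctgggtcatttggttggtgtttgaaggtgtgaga
Trim30b: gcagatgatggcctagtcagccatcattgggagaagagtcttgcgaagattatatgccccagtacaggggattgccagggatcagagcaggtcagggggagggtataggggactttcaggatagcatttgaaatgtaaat
Trim12a: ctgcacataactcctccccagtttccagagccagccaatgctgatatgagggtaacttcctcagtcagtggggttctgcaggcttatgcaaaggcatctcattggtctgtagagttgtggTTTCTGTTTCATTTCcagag
Trim12c: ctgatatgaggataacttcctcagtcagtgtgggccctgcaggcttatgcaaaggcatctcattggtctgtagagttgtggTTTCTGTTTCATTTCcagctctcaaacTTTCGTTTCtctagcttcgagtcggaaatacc
Trim34a: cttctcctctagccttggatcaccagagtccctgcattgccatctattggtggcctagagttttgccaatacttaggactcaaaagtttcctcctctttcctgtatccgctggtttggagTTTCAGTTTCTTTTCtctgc

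Both strands of the whole RefSeq windows, 300 bases long, were searched. The motif GAAA, any 2 bases, GAAA, the core of the interferon-stimulated response element, was in 3.44% of 32851 promoter windows. It was in those of 5 of the 7 genes, Trim30a, Trim30d, Trim12a, Trim12c and Trim34a. The form with any 1 base between the blocks was added after these sequences had been read. It was in 3.17% of all windows and in those of 6 genes, the same 5 and Trim30c, where it lay from 101 to 93 bases before the start. In Trim34a, Trim12a and Trim12c the 2 forms overlapped. Of the 31 interferon-induced genes of the list used below, 23 had a promoter window, and 12 of these held the first form and 7 the second. Of 46 other Trim genes with a window, 4 held the first form, among them Trim5 and Trim21. The window of Trim30b held neither, and its RefSeq start lies inside the longer GENCODE model of the gene. Several of these matches are not independent: 99 consecutive bases of the Trim30a window recur in that of Trim30d, and 63 of the Trim12a window in that of Trim12c. The only match of Trim30c lies in a run of 21 bases that recurs in the Trim30a window. All of these motif hits are letter matches and not sites shown to be bound.

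**Figure D1:**
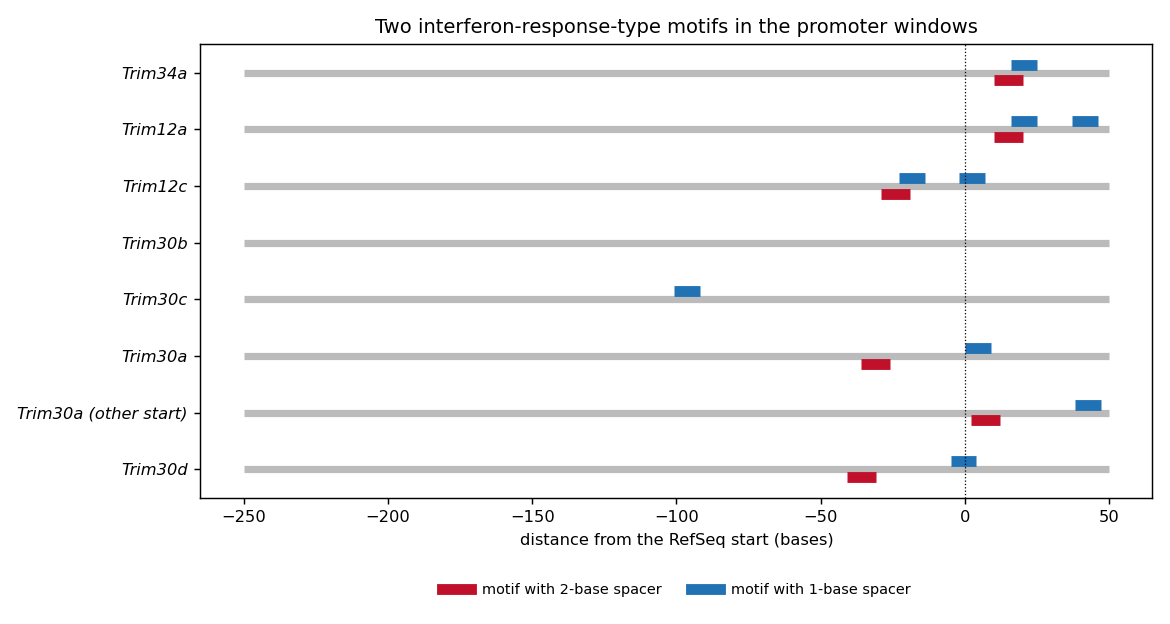
Positions of the paired GAAA motifs (red, 2 bases between the blocks, blue, 1 base) in the promoter windows of the 7 genes, with a further RefSeq start of Trim30a, against the distance in bases from the RefSeq start. All motifs lie within 41 bases before to 47 bases after the start, except that of Trim30c, and Trim30b has none.

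Summed over the 7 genes, the cluster stood at 170 CPM in the naïve library, 42.9 CPM in week 2 and 114 CPM in week 3 ta-non-activated cells, and 425 and 630 CPM in week 2 and week 3 ta-activated cells. The cultured libraries were therefore the highest. In the ILC2-gated cells of the week 3 ta-non-activated library the sum was 118 CPM, and in its other 1105 cells 113 CPM. Summed levels do not tell whether more cells carried the RNA or each cell carried more of it. Each ratio below is on the log2 scale, after 1 CPM was added to both levels. By that measure 6 of the 7 genes were over 2-fold higher in cultured than in fresh tumour-associated cells in both weeks, beside 4.85% of the 18230 genes with a UMI in the 4 libraries. All 7 had both ta-activated levels above both ta-non-activated levels, beside 28.6% of those genes. These are the values the choice of genes used, so nothing further is read from the counts. The closest to the 2-fold limit were Trim12a just above it, at 1.25 in week 3, and Trim30b below it, at 0.76 and 0.26. The Trim30b ratios depend on the CPM added, since its levels lay below 1 CPM.

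**Figure D2:**
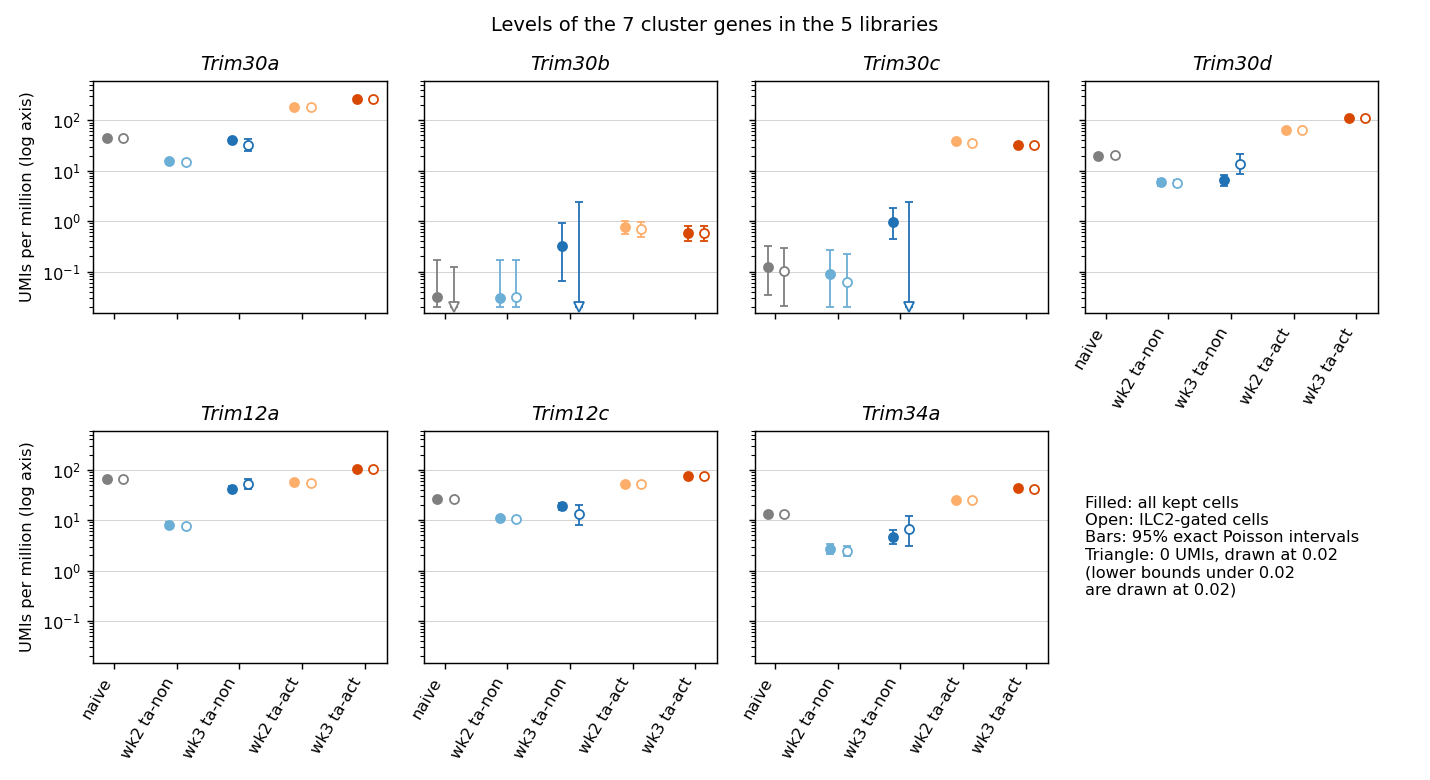
CPM (log axis) of each cluster gene in the 5 libraries, in all kept cells (filled) and in ILC2-gated cells (open), with 95% exact Poisson intervals that cover counting error only. For all 7 genes both ta-activated libraries lie above the week 2 ta-non-activated library, though Trim30b stays below 1 CPM in every library.

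Trim30a, the best studied member, had 44.6 CPM in the naïve library (95% exact Poisson interval 42.3 to 47.0). In the ta-non-activated libraries of weeks 2 and 3 it had 15.2 CPM (13.9 to 16.6) and 40.2 CPM (36.3 to 44.5), and in the ta-activated libraries 187 CPM (184 to 191) and 266 CPM (262 to 270). The fresh libraries were all low, and naïve and week 3 ta-non-activated cells did not differ beyond counting error. The log2 ratio of cultured to fresh cells was 3.54 in week 2 and 2.70 in week 3, a mean of 3.12 ± 0.59 (SD, n = 2 weeks). In ILC2-gated cells of the week 3 ta-non-activated library Trim30a stood at 32.7 CPM (24.3 to 43.1).

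Trim30d, the closest relative of Trim30a, had 19.6 CPM in naïve cells (18.1 to 21.2), 5.87 CPM (5.07 to 6.75) and 6.49 CPM (4.97 to 8.34) in the week 2 and week 3 ta-non-activated libraries, and 65.3 CPM (63.2 to 67.4) and 109 CPM (106 to 111) in the week 2 and week 3 ta-activated libraries. The 2 ta-non-activated levels overlapped, and the groups did not. The log2 ratios were 3.27 in week 2 and 3.87 in week 3, a mean of 3.57 ± 0.43 (SD, n = 2 weeks). In the ILC2-gated cells of the week 3 ta-non-activated library Trim30d rested on 21 UMIs and stood at 13.7 CPM (8.50 to 21.0), against 5.09 CPM in the other cells. With gated cells the week 3 ratio was 2.90.

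Trim30c was close to absent from fresh cells and plainly present in culture. It had 4 UMIs in 6389 naïve cells (0.12 CPM), 3 UMIs in the week 2 and 9 UMIs in the week 3 ta-non-activated library (0.090 and 0.96 CPM), and 2191 and 2038 UMIs in the week 2 and week 3 ta-activated libraries (38.2 and 33.0 CPM). Unlike Trim30a and Trim30d, it was no higher in the week 3 than in the week 2 ta-activated library. The log2 ratios were 5.17 and 4.12, a mean of 4.64 ± 0.74 (SD, n = 2 weeks), and they depend on the CPM added: with 0.1 CPM in place of 1 they were 7.65 and 4.97. All 9 UMIs of the week 3 ta-non-activated library lay in cells outside the ILC2 gate, and the 0 UMIs inside it allow up to 1.96 CPM.

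Trim30b, which has the short coding sequence, was barely detected. It had 1, 1 and 3 UMIs in the naïve, week 2 and week 3 ta-non-activated libraries and 43 and 36 UMIs in the week 2 and week 3 ta-activated libraries, or 0.75 and 0.58 CPM. The level was at most 0.32 CPM in fresh cells. The intervals of the week 3 libraries overlapped (0.066 to 0.93 CPM and 0.41 to 0.81 CPM), so no difference was detectable there at this depth. Those of the week 2 libraries did not, with 0.00076 to 0.17 CPM in fresh and 0.54 to 1.01 CPM in cultured cells. With 0.1 CPM added in place of 1, the log2 ratios were 2.71 in week 2 and 0.70 in week 3.

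Trim12c had 26.1 CPM in naïve cells (24.4 to 28.0), 11.1 CPM (9.97 to 12.3) and 18.9 CPM (16.3 to 21.9) in the week 2 and week 3 ta-non-activated libraries, and 51.5 CPM (49.7 to 53.4) and 76.5 CPM (74.4 to 78.7) in the week 2 and week 3 ta-activated libraries. Its order over the libraries, from week 2 ta-non-activated up to week 3 ta-activated cells, was also that of Trim30a, Trim30d and Trim34a. The log2 ratios were 2.12 and 1.96, a mean of 2.04 ± 0.11 (SD, n = 2 weeks). ILC2-gated cells of the week 3 ta-non-activated library held 20 UMIs, or 13.1 CPM (7.99 to 20.2).

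Trim12a, the near copy of Trim12c with the shorter coding sequence, followed another order. It had 65.9 CPM in naïve cells (63.1 to 68.8), 7.97 CPM (7.04 to 8.99) and 42.5 CPM (38.4 to 46.8) in the week 2 and week 3 ta-non-activated libraries, and 57.1 CPM (55.1 to 59.1) and 103 CPM (100 to 105) in the week 2 and week 3 ta-activated libraries. The naïve level thus lay above that of week 2 ta-activated cells, which was the case for no other member. The log2 ratios of 2.69 and 1.25 gave a mean of 1.97 ± 1.02 (SD, n = 2 weeks), the widest gap between weeks among the 7. In ILC2-gated cells of week 3 the ta-non-activated level was 51.7 CPM (40.9 to 64.4) and the ratio 0.97, just under 2-fold.

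Trim34a, the member on the opposite strand and the least alike in sequence (61.9% to 72.4% identical to the others over aligned coding bases), had 13.2 CPM in naïve cells (11.96 to 14.5), 2.68 CPM (2.15 to 3.30) and 4.68 CPM (3.40 to 6.29) in the week 2 and week 3 ta-non-activated libraries, and 25.2 CPM (23.9 to 26.6) and 42.6 CPM (41.0 to 44.3) in the week 2 and week 3 ta-activated libraries. All 5 levels differed beyond counting error. The log2 ratios were 2.83 and 2.94, a mean of 2.89 ± 0.07 (SD, n = 2 weeks). ILC2-gated cells of the week 3 ta-non-activated library held 10 UMIs, or 6.54 CPM (3.14 to 12.02). Trim30b had 0 UMIs in those cells.

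Genes near the cluster and elsewhere in the family show how far this pattern extended. Trim5 and Trim34b lie between members of the cluster. Trim5 had 10.1 CPM in naïve cells, 2.71 and 4.79 CPM in ta-non-activated cells and 8.21 and 13.5 CPM in ta-activated cells of weeks 2 and 3, with log2 ratios of 1.31 and 1.32. In the ILC2-gated cells of the week 3 ta-non-activated library it stood at 10.5 CPM (5.98 to 16.99), less than 2-fold below the 13.5 CPM of ILC2-gated week 3 ta-activated cells. Trim34b was at or near 0 in every library, with at most 0.093 CPM. Trim21, an antibody receptor inside the cell, had log2 ratios of 1.69 and 1.44, Trim3 of 0.44 and 1.43, and Trim68 of 0.29 and 0.02. Trim6 had 65 UMIs in the week 3 ta-non-activated library (6.92 CPM), all of them in cells outside the ILC2 gate, 0 UMIs in the week 2 ta-non-activated library, and 0.17 and 0.37 CPM in ta-activated cells. Trim3, Trim6, Trim21 and Trim68 were listed whether inside the cluster or not. Of these 6 genes 5 could be tested, and 2, Trim5 and Trim21, were over 2-fold higher in both weeks, Trim5 not with ILC2-gated cells. No ILC2-gated level is given for Trim21. Among 61 other Trim genes, these 6 included, 33 were abundant enough to test. The 33 had median log2 ratios of 0.30 and 0.37, and 6 of them were over 2-fold higher in both weeks. Over all 12643 genes tested the medians were 0.17 and 0.06. The next 6 were named among those with at least 10 CPM in a library, a limit that Trim6 did not reach, and by the mean of both weeks. Of these Trim56, a ligase that acts in nucleic acid sensing, stood highest with 1.98 and 2.25, followed by Trim21 and by Trim25 (1.25 and 1.85), which modifies the RNA sensor RIG-I. Trim13 (-0.0047 and -1.79), Trim28 (-0.34 and -1.12), a co-repressor of retroelements, and Trim37 (-0.45 and -0.41) stood lowest of those. No ILC2-gated level is given for any of these 6, and most cells of the week 3 ta-non-activated library lay outside that gate.

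In the test of 2 ta-activated against 2 ta-non-activated libraries, edgeR (quasi-likelihood, p adjusted by Benjamini-Hochberg) called 0 of 12643 genes (0%) at 0.05, while 2120 had an unadjusted p under 0.05 and DESeq2 called 1041. Of the 33 other Trim genes edgeR called 0, with 7 higher and 0 lower at an unadjusted p under 0.05, and DESeq2 called 3, all higher, namely Trim56, Trim21 and Trim14 (log2 ratios of 1.20 and 1.76, named after its values were seen). For Trim56 the edgeR adjusted p was 0.243 and the DESeq2 adjusted p 0.00015, and for Trim21 they were 0.243 and 0.015. Without the week 2 ta-non-activated library edgeR called 1646 genes, and without the week 3 ta-non-activated library 513, where the lone fresh library is assumed to vary like the cultured ones.

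**Figure D3:**
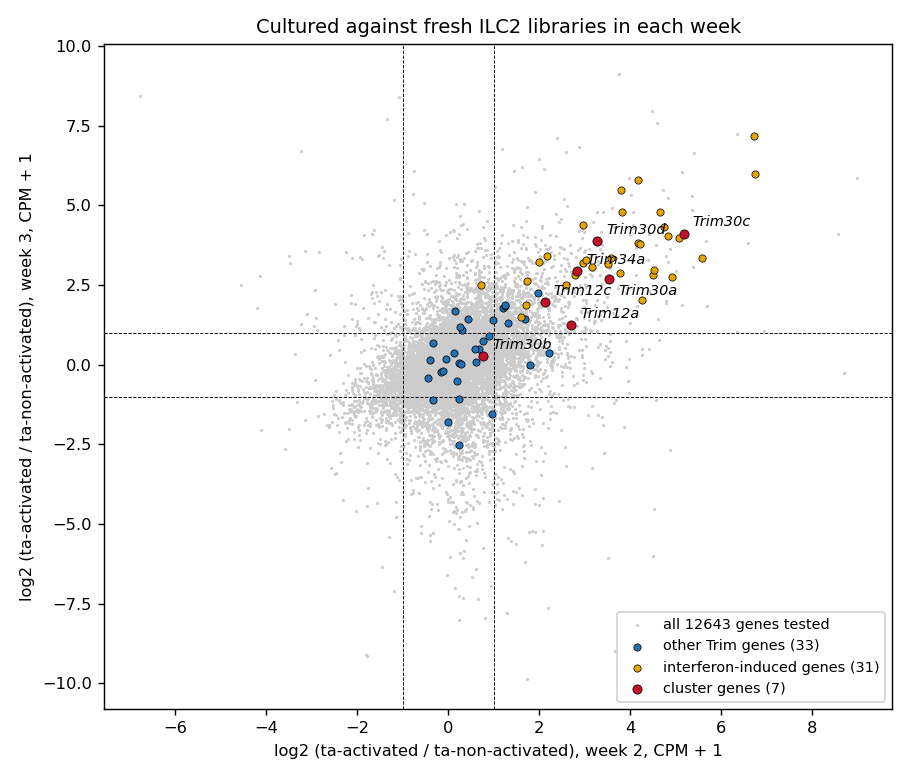
Log2 ratio of ta-activated to ta-non-activated cells (CPM with 1 added) in week 2 (horizontal) and week 3 (vertical) for the 12643 genes tested (grey), 33 other Trim genes (blue), 31 interferon-induced genes (yellow) and the 7 cluster genes (red, labelled). Dashed lines mark a 2-fold difference, and 6 cluster genes lie past it in both weeks. These lie in the range of the interferon-induced genes, except Trim12a in week 3. Its 1.25 there is below the lowest of that list, Irf9 at 1.51.

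A list of 31 interferon-induced genes, with no cluster gene in it, was summed for comparison. The list was chosen with earlier results of these data known, so its counts of genes called describe it and are no independent evidence. It came to 313 CPM in naïve cells, 738 and 894 CPM in ta-non-activated cells and 4913 and 8188 CPM in ta-activated cells of weeks 2 and 3. Of the 31 genes, 30 were over 2-fold higher in both weeks and 0 over 2-fold lower, with median log2 ratios of 3.79 and 3.30. The median of the 7 cluster genes was 2.83 and 2.70. Ifit3 (6.73 and 7.18), Ifit1 (6.74 and 5.98) and Ifit3b (4.17 and 5.80), which encode antiviral RNA-binding proteins, had the largest ratios. Ifi35 (0.71 and 2.51), Irf9 (1.59 and 1.51), a subunit of the factor that binds the response element, and Bst2 (1.71 and 1.86), which tethers budding virus, had the smallest. The edgeR test called 0 of the 31, with 27 at an unadjusted p under 0.05, all higher, and a smallest adjusted p of 0.243. DESeq2 called 28, all higher. The list and the cluster parted in naïve cells, where the list was at its lowest and the cluster sum exceeded both ta-non-activated libraries.

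A further list held 8 genes of the Toll-like receptor, inflammasome and DNA-sensing pathways, on which TRIM30 or TRIM12 proteins are known to act. Of these 8, 1 was over 2-fold higher in both weeks, and edgeR and DESeq2 each called 0, with 1 at an unadjusted p under 0.05 in edgeR. That was Tab2, a target of TRIM30α, with log2 ratios of 1.02 and 1.45 (edgeR adjusted p 0.254). Tab3 had ratios of 0.61 and 0.21, Map3k7, the kinase that TAB2 and TAB3 bind, -0.24 and 0.44, Traf6, the ligase upstream of it, 0.34 and -0.29, and the adaptor Myd88 0.32 and 1.22. Nfkbia, an inhibitor of NF-κB, had -1.16 and 0.72. The inflammasome gene Nlrp3 had 1.97 and 0.02, and Tmem173, which encodes the DNA-sensing adaptor STING, 0.40 and 3.51. Besides Tab2, only Tab3, Myd88, Nlrp3 and Tmem173 had ratios above 0 in both weeks, and Nlrp3 and Tmem173 differed most between weeks.

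The naïve library was set beside each ta-non-activated library, again with no test, since there was 1 naïve library and the others took part in the choice of genes. Trim30d (log2 ratios of 1.58 and 1.46 over week 2 and week 3) and Trim34a (1.95 and 1.32) were over 2-fold higher in naïve cells than in both, 2 of 7 genes beside 14.5% of 18405 genes. None was over 2-fold lower, beside 5.92%. Trim12a was 2.90 higher over week 2 and 0.62 over week 3, Trim30a 1.49 and 0.15, and Trim12c 1.17 and 0.44. With ILC2-gated cells 0 of the 7 passed the limit against both, and the share of all genes is not given for that setting. The naïve matrix was made with another Cell Ranger version (6.0.0 against 3.0.2), and genes with longer introns stood higher in it (Spearman's rho 0.55 and 0.56 across 8769 genes, which are not independent replicates). Among the genes with introns of similar length, the median log2 ratios over weeks 2 and 3 were 0.44 and 0.35 for the tenth that holds Trim30d, 0.92 and 0.79 for that of Trim30a, -0.22 and -0.20 for that of Trim34a, and -0.34 and -0.39 for that of Trim12a and Trim12c. Epithelial markers (Sftpc, Scgb1a1 and Epcam) summed to 284 CPM in the naïve library and to 20.9 and 80.6 CPM in the ta-non-activated libraries, and their part in these ratios was not tested. Intron length was not a term in the ratios, and software version and group cannot be told apart.

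Within each library, cells with at least 2000 UMIs were thinned to 2000 UMIs, ranked by their UMIs from the interferon list and cut into 5 bins of equal size. The levels in each bin were then taken from all UMIs of its cells. In cultured cells the cluster followed this ranking. In week 2 ta-activated cells Trim30a had 81.9, 148, 211, 296 and 435 CPM from the lowest to the top bin, and in week 3 145, 219, 281, 354 and 451 CPM. Each step exceeded its counting intervals. Trim30d had 26.9, 48.0, 65.1, 113 and 167 CPM in week 2 and 53.9, 83.8, 112, 144 and 207 CPM in week 3. Trim12a had 16.4 CPM in the lowest and 164 CPM in the top bin in week 2, and 54.7 and 176 CPM in week 3. Trim34a had 10.0 and 58.1 CPM in week 2 and 24.8 and 67.2 CPM in week 3. Trim12c had the flattest course, with 24.6 and 94.1 CPM in week 2 and 50.8 and 101 CPM in week 3.

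Trim30c had the steepest course. It had 2.51, 6.33, 15.4, 62.4 and 229 CPM over the bins of week 2, and 2.13, 6.67, 14.9, 38.2 and 149 CPM over those of week 3. The log2 ratio of the top to the lowest bin was 6.04 and 5.58, against 1.63 to 2.59 for Trim30a and Trim30d. Trim30b rested on 3 UMIs in the lowest bin of each library and on 22 and 13 in the top. Past 2-fold in both libraries were 6 of the 7 genes, all but Trim12c (1.89 and 0.97), beside 1.61% of 15145 genes, a background that includes the ranking genes themselves. The medians over all genes tested were -0.06 and -0.07. Those of the 33 other Trim genes tested were 0.14 and -0.12, and those of the 5 tested genes listed near the cluster 0.51 and 0.04. Of the 4 other Trim genes shown singly, Trim21 had 2.24 and 1.72, Trim56 1.42 and 1.06, Trim25 0.83 and 1.20, and Trim28 -0.14 and -0.65. Trim21 was thus about as steep as Trim30a (2.40 and 1.63).

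**Figure D4:**
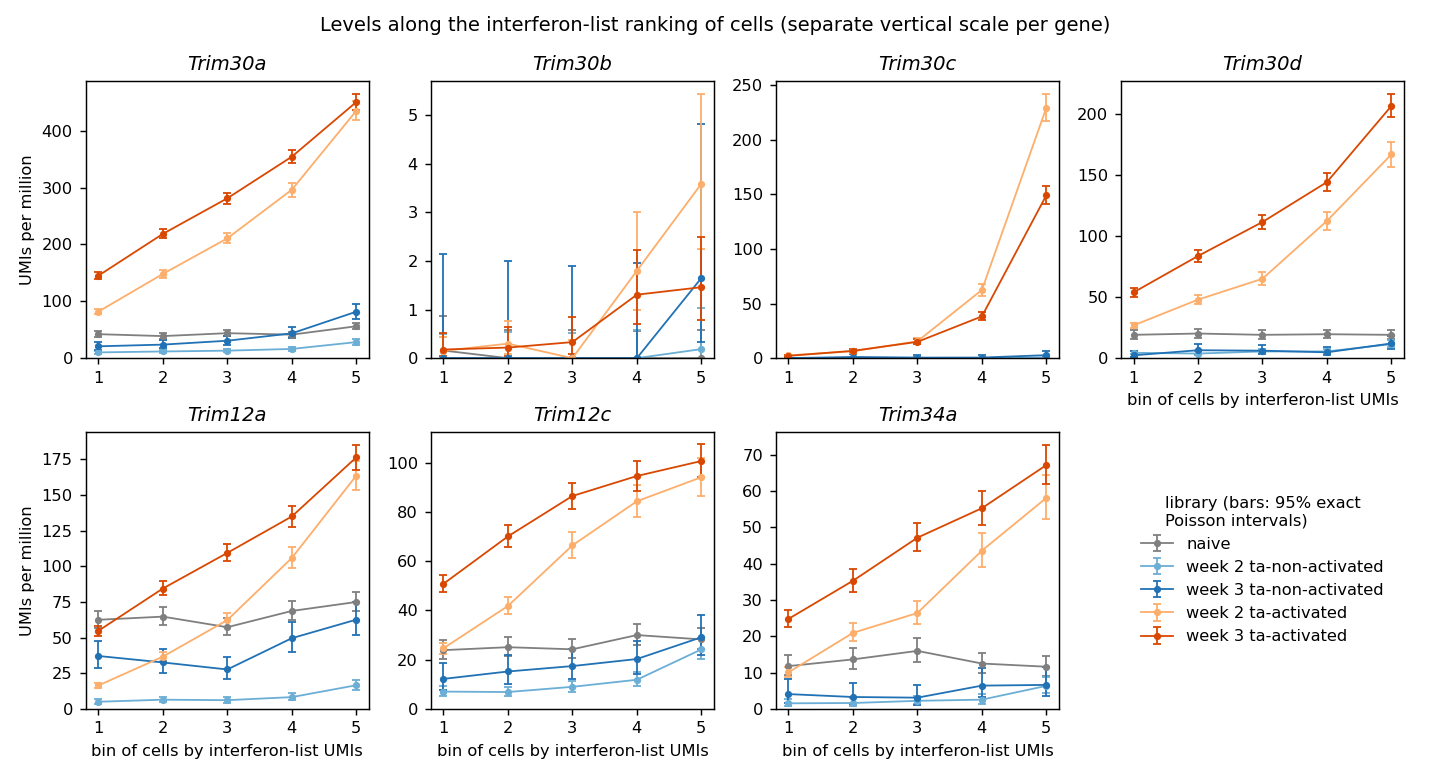
CPM of each cluster gene over the bins of cells ranked by interferon-list UMIs, from lowest (1) to highest (5), in each library, with 95% exact Poisson intervals. The lines of both ta-activated libraries climb for every gene with more than a few UMIs, most steeply for Trim30c, and the naïve lines stay nearly flat.

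Cells of the ranking also differed in depth, marker levels and cell cycle. The median UMIs per cell were 27351 in the lowest and 8391 in the top bin of week 2, and 18360 and 10190 in week 3. The share of cycling cells was 34.2% and 8.16% in week 2 and 31.5% and 6.20% in week 3. The ILC2 markers were at 8112 and 3966 CPM in week 2 and at 7904 and 6182 CPM in week 3. The part of these in the ranking was not tested beyond the 2 subsets that follow. Among cells that were not cycling the same 6 genes were past 2-fold. Among cells with 8000 to 16000 UMIs, a range set after seeing these depths, 5 of the 7 were, since Trim12a then had 2.14 and 0.90, while Trim30a had 1.87 and 1.30 and Trim30d 1.88 and 1.57. The share of all genes past 2-fold is not given for these subsets, so their counts have no background beside them.

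The ta-non-activated libraries also followed the ranking, at lower levels, and the naïve library hardly did. Trim30a had 10.1 CPM in the lowest and 28.2 CPM in the top bin of week 2 ta-non-activated cells, and 20.8 and 81.7 CPM in week 3. Its log2 ratio of the top to the lowest bin was 1.39 and 1.92 there, against 2.40 and 1.63 in ta-activated cells. For Trim30d it was 1.22 and 1.98, against 2.59 and 1.92, and for Trim12c 1.65 and 1.19, against 1.89 and 0.97. For these genes the week 3 fresh ratio was thus no smaller than the week 3 cultured one, though the bins spanned unlike ranges of the interferon list. From the lowest to the top bin the list went from 276 to 2318 CPM in week 3 fresh cells. It went from 3681 to 17586 CPM in week 3 cultured cells. In week 2 it went from 464 to 1454 CPM in fresh and from 1748 to 13315 CPM in cultured cells. As computed, the week 3 fresh ratio was smaller for Trim12a (0.74 against 1.67), Trim34a (0.59 against 1.40) and Trim30c (1.90 against 5.58). Some of these ratios rest on few fresh UMIs. Trim30d had 4 in the lowest and 22 in the top bin, and Trim34a 7 and 12. Trim30c had 0 and 5, so the 1 CPM added limits its fresh ratio, which cannot be ranked against the cultured one. The ratios of Trim30b were 1.40 against 1.06, on 0 fresh UMIs in the lowest and 3 in the top bin. These differences were not tested. The mix of cells also differed along the week 3 fresh ranking. T-lineage markers stood at 5571 CPM in the lowest and 10388 CPM in the top bin, and ILC2 markers at 1253 and 281 CPM. ILC2-gated cells made up 46.2% of the lowest and 5.35% of the top bin. The ranking was not repeated in the gated cells of this library, and the part of this mix was not tested. In naïve cells Trim30a had 42.2 and 56.1 CPM, and Trim30d 19.1 CPM in both. The thinned naïve cells held a median of 0 interferon-list UMIs in the lowest bin and 2 in the top, against 0 and 4 in each ta-non-activated library. The lowest naïve bin and the next one held only cells with 0 such UMIs. From all UMIs the naïve interferon list stood at 168 CPM in the lowest and 661 CPM in the top bin. The part of these low counts in the flat naïve levels was not tested.

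The lowest bin of cultured cells can be set beside whole fresh libraries of the same week. Its interferon list stood at 1748 CPM in week 2 and 3681 CPM in week 3, still above the 738 and 894 CPM of ta-non-activated cells. Trim30a was there at 81.9 and 145 CPM against 15.2 and 40.2 CPM in fresh cells, Trim30d at 26.9 and 53.9 CPM against 5.87 and 6.49 CPM, and Trim34a at 10.0 and 24.8 CPM against 2.68 and 4.68 CPM. Of the 6 genes other than Trim30b, Trim12a came closest to the fresh level, with 16.4 against 7.97 CPM in week 2 and 54.7 against 42.5 CPM in week 3. Most cells of the whole week 3 fresh library lay outside the ILC2 gate. Its ILC2-gated cells had 32.7 CPM of Trim30a, 13.7 CPM of Trim30d and 6.54 CPM of Trim34a. Trim12a stood there at 51.7 CPM (40.9 to 64.4), an interval that holds the 54.7 CPM of the lowest cultured bin.

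Trim30c was also the member spread least evenly over cultured cells. Its UMIs lay in 572 of 2895 week 2 ta-activated cells and 743 of 3822 week 3 cells, although the same number of UMIs spread in proportion to depth would reach 1298 and 1422 cells. The 5% of cells with most Trim30c UMIs held 57.1% and 59.4% of them, with up to 18 and 22 in a cell. Trim30a lay in 2492 cells of week 2 against 2490 under even spreading and in 3435 of week 3 against 3489, and its top 5% of cells held 20.4% and 18.6%. Trim30d lay in 1694 cells against 1735 and in 2661 against 2755. The expected numbers assume levels unrelated to depth. Trim30a and Trim30d rose along the ranked bins while median depth fell, so a match with the expected number does not show even spread. After thinning to 2000 UMIs, 9.96% (95% exact Clopper-Pearson interval 8.88% to 11.1%) and 6.95% (6.15% to 7.81%) of ta-activated cells of weeks 2 and 3 held a Trim30c UMI. In ta-non-activated cells this was 0 of 1809 in week 2, which allows up to 0.166%, and 5 of 1495, or 0.33%, in week 3. Thinning left out 73 and 108 ta-activated and 14 and 106 ta-non-activated cells of weeks 2 and 3. No cell type known to lack Trim30c was at hand to set the share that free RNA gives.

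Cells with a Trim30c UMI held more of the other members. Trim30a stood at 386 CPM in the 566 such cells of week 2 and at 158 CPM in the 2256 without, and at 403 and 236 CPM in the 732 and 2982 cells of week 3. Trim30d stood at 144 and 53.8 CPM in week 2 and at 174 and 94.3 CPM in week 3. Trim12a stood at 128 and 46.9 CPM, then at 151 and 91.9 CPM. For Trim12c the gap was narrower, at 75.2 and 48.1 CPM, then 97.3 and 71.9 CPM. The interferon list differed in the same way, at 9844 and 4200 CPM in week 2 and 13233 and 7080 CPM in week 3, and cells with a Trim30c UMI were shallower, with a median of 8470 against 15724 UMIs in week 2 and 11132 against 13061 in week 3.

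**Figure D5:**
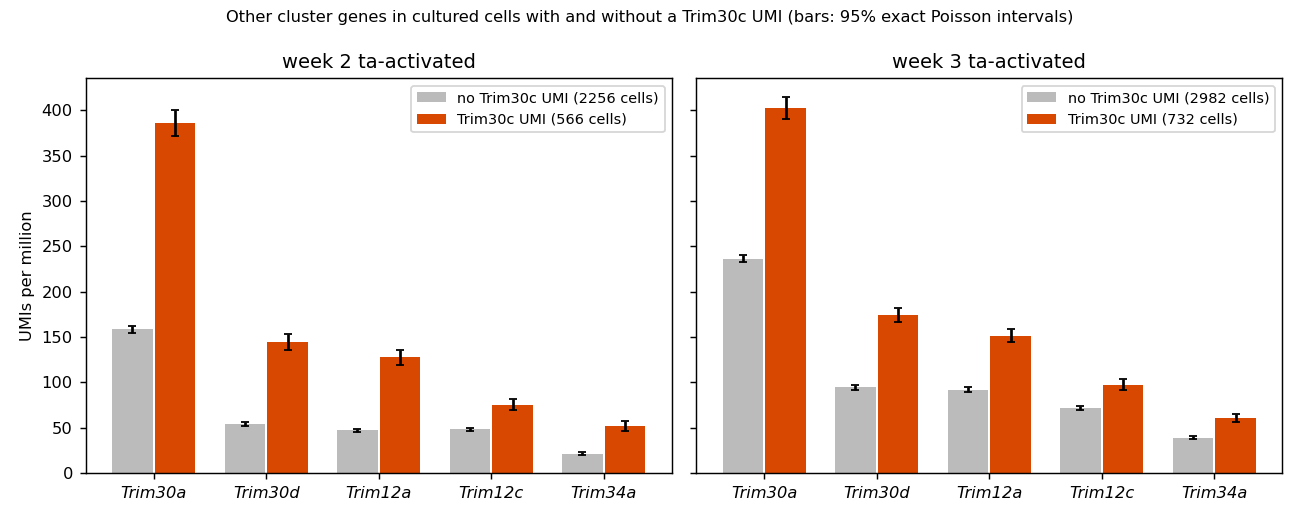
CPM of 5 other cluster genes in ta-activated cells with (orange) and without (grey) a Trim30c UMI, by week, with 95% exact Poisson intervals; the vertical axis starts at 0. All 5 genes are higher in cells with a Trim30c UMI in both weeks, Trim30a at 386 against 158 CPM in week 2.

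Over single cultured cells the 6 members other than Trim30b correlated weakly and positively with each other, while r between Trim30b and the others lay between -0.01 and 0.15. Pearson's r of log counts per 10000 UMIs was 0.38 in week 2 (2895 cells) and 0.32 in week 3 (3822 cells) for Trim30a and Trim30d, 0.37 and 0.28 for Trim30a and Trim30c, and 0.22 and 0.21 for the near copies Trim12a and Trim12c. With the summed interferon list Trim30a had 0.57 and 0.50, Trim30d 0.41 and 0.42, Trim30c 0.43 and 0.44, Trim12a 0.44 and 0.32, Trim34a 0.28 and 0.24, and Trim12c 0.25 and 0.17. These values describe cells of 1 library each, which share handling and differ in depth. With the log of total UMIs, r in weeks 2 and 3 was -0.16 and 0.02 for Trim30a and -0.14 and -0.01 for Trim30d. It was -0.28 and -0.15 for Trim30c, -0.18 and -0.04 for Trim12a, -0.08 and 0.02 for Trim34a, and -0.03 and 0.02 for Trim12c. The part of depth in the correlations was not tested. Among 9177 genes with a UMI in at least 5% of cells of both cultured libraries, those most like Trim30a were Isg15 (0.49 and 0.42), Ifit3 (0.41 and 0.42), Ifit1 (0.50 and 0.39), Ifi203 (0.44 and 0.38) and Mndal (0.44 and 0.35), ranked by the lower value. Those most like Trim30d were Isg15 (0.39 and 0.36), Ifit1 (0.38 and 0.36), Trim30a (0.38 and 0.32), Ifi203 (0.30 and 0.31) and Ifit3 (0.29 and 0.33). Isg15 encodes a ubiquitin-like protein induced by interferon, and Ifi203 and Mndal belong to the interferon-inducible p200 family. Trim30d took place 16 among the genes ranked for Trim30a.

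Cells were called cycling when, after thinning, 2 or more of 12 cell cycle genes had a UMI. Such cells held less of the members in culture. Trim30a stood at 153 CPM in 656 cycling and 206 CPM in 2166 other cells of week 2, and at 214 and 285 CPM in 658 and 3056 cells of week 3. Trim30d stood at 43.5 and 77.2 CPM, then at 71.0 and 122 CPM. Trim30c differed most, at 5.20 and 56.3 CPM, then at 8.48 and 41.6 CPM. Trim12c differed least, at 44.0 and 55.7 CPM, then at 65.0 and 80.6 CPM. The interferon list stood at 3871 and 5486 CPM in week 2 and at 6075 and 8955 CPM in week 3, and cycling cells were deeper, with a median of 24893 against 11516 UMIs in week 2 and 21711 against 11574 in week 3. The part of depth and of interferon-list level in this difference was not tested.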

How the data were processed

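RNA of single lung ILC2s was measured in 5 libraries. The files the authors deposited hold raw UMI counts, a whole number for each gene in each barcode, made with Cell Ranger (3.0.2 in the header of 4 matrices and in the submitters' processing notes, 6.0.0 in the header of the naïve matrix) on GRCm38, with no normalization. A barcode was kept when it had 200 or more genes and its mitochondrial share was under 5%. No doublet caller was run, and cells with the most UMIs were left out as an alternative. Counts were summed per library and scaled to 1000000 UMIs, and ratios are log2 of CPM with 1 CPM added. Libraries held 9394957 to 61830293 UMIs in kept cells, and intervals and the limit for a count of 0 (3 counts) cover counting error only.

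Members and gene lists were chosen with earlier results of these data known. All members are named. Lists of up to 10 genes are given whole, and from longer ones the 3 largest and 3 smallest mean ratios among genes with at least 10 CPM in a library. Ta-activated and ta-non-activated libraries, 2 against 2, were compared with edgeR 4.0.16 (filterByExpr, TMM, quasi-likelihood test, Benjamini-Hochberg, threshold 0.05) in R 4.3.3, with DESeq2 1.42.0 as an alternative. Libraries are not labelled as separate cultures beyond their week, so p-values measure the spread between these libraries. Scripts were tested on simulated data. Other steps used Python 3.11.15, numpy 2.4.6, scipy 1.17.1 and pandas 2.3.3. Gene positions are those of GENCODE M21 on GRCm38, with 27639 of 27726 identifiers found. Of the 32 interferon-induced genes listed, 31 were in the matrices.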

Additional observations from a re-analysis of the deposited data

Results flagged for a closer look

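In 4 genes named beside the cluster the log2 ratio of ta-activated to ta-non-activated cells had opposite signs in the 2 weeks, with 1 library a side in each week, and the difference between the weeks was not tested. Trim6 differed by -2.76 (week 3 minus week 2, on the log2 scale), with 0.23 in week 2 and -2.53 in week 3. Its 65 UMIs in the week 3 ta-non-activated library all lay in cells outside the ILC2 gate. Nfkbia differed by 1.87, with -1.16 and 0.72. Map3k7 differed by 0.68, with -0.24 and 0.44. Traf6 differed by -0.63, with 0.34 and -0.29. For Nfkbia, Map3k7 and Traf6 no ILC2-gated level is given, and most cells of the week 3 ta-non-activated library lay outside that gate. No cluster gene had opposite signs in the 2 weeks.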

How the results depend on the processing

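The number of cluster genes over 2-fold higher in both weeks was 6 under 6 of 7 alternatives and 5 with ILC2-gated cells, where the week 3 ratio of Trim12a was 0.97. The number over 2-fold apart between naïve and both ta-non-activated libraries was 2 under 6 of 7 alternatives and 0 with ILC2-gated cells, which leave 496 week 3 ta-non-activated cells. The count past 2-fold between the top and lowest bins of ranked cells was 5 to 7 over 6 alternatives. For none of these counts is the share of all genes given under the alternatives. Of 98 recomputed log2 ratios of a member in 1 week, 80 moved by less than the spread between weeks, 18 by more, and 0 changed sign. With 1 of the 4 libraries left out, the mean log2 ratio changed sign for 0 members. For Trim12a it ranged from 0.84 without the week 2 to 3.11 without the week 3 ta-non-activated library, against 1.97 with all 4. EdgeR called 0 genes in the comparison of cultured with fresh cells under 9 of 12 alternatives, 1041 were called with DESeq2, and with 1 library left out the number ranged from 0 to 1646, the lone library being assumed to vary like the others. The cause was not tested. The week number pairs the libraries only by tumour stage, and deviations of same-week libraries from their group means correlated at -0.06. With a replicate block for the week edgeR called 0 genes, with 1505 at an unadjusted p under 0.05 against 2120 without the block. TMM scaling moved the median log2 ratio of all genes from 0.17 to 0.11 in week 2 and from 0.06 to 0.11 in week 3. Depth limited Trim30b, which had at most 43 UMIs in a library, and Trim30c in fresh cells.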
